A study of Mus musculus with 8 samples.

Results

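The genes Bpifa6, BC048679, Obp1a, Scgb1c1, Aqp5 and Lypd2 were examined in olfactory bulb RNA of male C57BL/6J mice. The 6 genes were chosen by name from the 34797 gene names on the array, as gland and secretory genes with large differences between single arrays. Their levels on the arrays were therefore part of the choice, and every value of the members below is a description without a test. The 6 genes had 7 noncontrol spots of 59305, with 2 probes for Aqp5 and 1 for each other gene.

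Mice were reared in a standard cage or under environmental enrichment, a larger cage with a running wheel, a small house, blocks and tubing, which began before birth. From postnatal day 28 to 55 they stayed in a clean-air chamber (groups C-C and EE-C) or breathed diesel exhaust of 90 µg/m3, 8 h a day on 28 days (groups C-DE and EE-DE). Necropsy followed at an age of 56 days. The methods give 1 mouse from each cage and pools of 7 mice for both standard-cage groups, of 8 for EE-C and of 9 for EE-DE, with the RNA of a pool split between 2 one-colour arrays as technical duplicates. That the 2 arrays of a group hold 1 pool rests on the methods alone: the sample labels give only a group and an array number, and it was not tested here. As described, a group is 1 pool whose 2 arrays hold no variation between mice. No group is therefore replicated, and no test of exposure or rearing was made. The level of a probe is log2 of its processed signal minus log2 of the array's 75th percentile, so 0 is the 75th percentile. All 8 arrays lay on 1 slide, with standard-cage pools in slide column 1 and enriched pools in slide column 2, so rearing and slide column cannot be told apart. Clean-air pools lay in rows 1 and 2 and exhaust pools in rows 3 and 4, so exposure and slide row cannot be told apart either.

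The lining of the nose holds serous and mucous glands, among them Bowman's glands beneath the olfactory epithelium, whose fluid carries odorant-binding lipocalins, BPI fold proteins, secretoglobins, mucins and antimicrobial proteins. These proteins bind small hydrophobic molecules, keep the mucus wet and act against microbes. The olfactory bulb is the brain region behind this tissue, separated from it by the cribriform plate, and it has no such glands. Aqp5 is a water channel of the apical membrane of gland cells and Lypd2 belongs to the Ly6 family, whose members are mostly anchored to the cell surface, so the name "secreted proteins" does not describe every gene of the set.

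The last 30 bases of each 60-base probe are given because they are the stretch of transcript on which each value rests. Positions follow the array's own annotation on mm9, and capitals mark the letters AATAAA, those of the common polyadenylation signal, which were present in this stretch of the Bpifa6 and Obp1a probes. The array files name 1 RefSeq transcript for each gene, and the probe identifier stands beside the gene.
Bpifa6 (NM_001080811, A_55_P2039349, chr2:153826170-153826229, plus strand): atcagaaacAATAAAggtctccttggattc
BC048679 (NM_001193274, A_55_P2027235, chr7:88639162-88639221, minus strand): agaagggatcattaaagtattttcccaaac
Obp1a (NM_008754, A_55_P1978013, chrX:75330854-75330913, minus strand): cttccttttttgaatgacttAATAAAgtga
Scgb1c1 (NM_001099742, A_52_P156775, chr7:148032087-148032146, plus strand): gtgcataaggagcaactggtcaagctgctg
Aqp5 (NM_009701, A_55_P1990121, chr15:99425138-99425197, plus strand): ttatttctggttaagatggggcggaggatg
Aqp5 (NM_009701, A_55_P2071236, chr15:99424655-99424714, plus strand): gccagaggaggactgggaagatcatagaga
Lypd2 (NM_026671, A_51_P136521, chr15:74562684-74562743, minus strand): aatgcctagaagaaatacaatggccatctg

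No member probe had more than 7 bases in a row in common with another member's probe. Against all other probes of the array, the Obp1a probe had at most 16 bases in a row in common with a probe of another gene (Krtap3-3, a keratin-associated protein), and 1 Aqp5 probe and the Lypd2 probe had 15, and the other 4 had fewer than 15. All 7 probes were well above background on 8 of 8 arrays, none had an outlier flag and none was saturated.

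Across the 21709 probes that passed the same filter, the SD between the 2 arrays of a pool was 0.11 (log2) for both standard-cage pools, 0.17 for EE-C and 0.13 for EE-DE. The range of a probe over the 8 arrays had a median of 0.24 and a 95th percentile of 0.73. Arrays had 75th percentiles of 644 to 716 intensity units, and 68.0% to 70.6% of noncontrol spots were well above background on 7 arrays, against 56.7% on the first EE-DE array. Olfactory bulb neuron markers, a list of 14 genes such as Th and Eomes, were present on all arrays with a summed level between 345 and 361 times the 75th percentile (here and for the lists below, over the brightest probe of each gene detected on at least 1 array), and 0 of their 16 probes differed by 1.5-fold in any comparison.

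**Figure D1:**
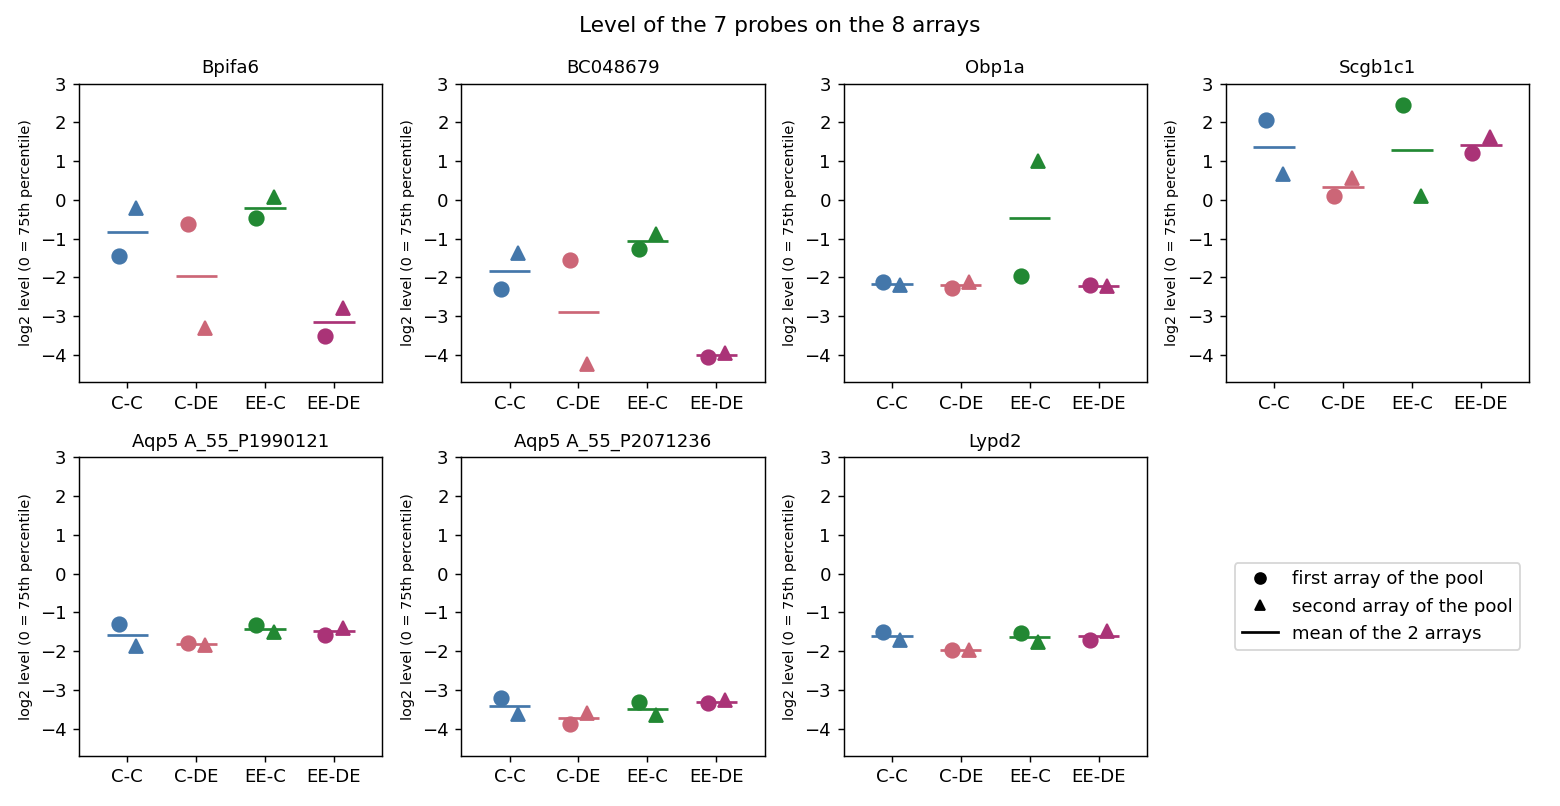
Log2 level (0 is the 75th percentile of the array) of the 7 probes on the 8 arrays, by pool. Circles are first arrays, triangles second arrays and lines the mean of the 2 arrays; the first C-DE array and the second lay 2.67 apart for Bpifa6, the second EE-C array stood alone for Obp1a, and Aqp5 and Lypd2 stayed within 0.67.

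The members fell into 3 patterns over the arrays. Bpifa6 and BC048679 were low on the same 3 arrays, Obp1a was high on 1 array, and Scgb1c1 followed a pattern of its own, which Aqp5 and Lypd2 shared at a much smaller size. The range over the 8 arrays was 3.60 (log2) for Bpifa6, 3.36 for BC048679, 3.28 for Obp1a and 2.37 for Scgb1c1, which ranked 12, 14, 15 and 47 among 21709 probes. It was 0.56 and 0.67 for the 2 Aqp5 probes and 0.50 for Lypd2, which ranked 2150, 1369 and 2825. The description of the set as genes with large differences between single arrays therefore held for 4 of the 6 genes and not for Aqp5 or Lypd2.

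Bpifa6 encodes a BPI fold protein of family A, relatives of the bactericidal/permeability-increasing protein that are secreted by airway and nasal epithelium. Its log2 level was -1.44 and -0.20 on the 2 C-C arrays, -0.63 and -3.31 on the C-DE arrays, -0.48 and 0.08 on the EE-C arrays, and -3.52 and -2.78 on the EE-DE arrays. The processed signal behind these levels ran from 62.4 on the first EE-DE array to 734 on the second EE-C array. Bpifa6 was thus high on every clean-air array and on the first C-DE array, and low on the second C-DE array and both EE-DE arrays, with no array between -2.78 and -1.44.

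BC048679, a gene named only by its cDNA, had the same division of arrays. Its log2 level was -2.30 and -1.38 on the C-C arrays, -1.55 and -4.24 on the C-DE arrays, -1.26 and -0.87 on the EE-C arrays, and -4.06 and -3.94 on the EE-DE arrays. The signals of different probes cannot be set against each other as levels of their genes, but the gap between the 2 probes can be followed over the arrays. It lay between 0.54 and 1.17, and the levels of the 2 probes had a Pearson's r of 0.99 over the 8 arrays. They lie on chromosomes 2 and 7, and their probes had at most 6 bases in a row in common. The 2 probes thus kept a difference that varied by 0.64 while each moved by more than 3.3.

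The division ran within the pair of C-DE arrays as well as between groups. The methods describe these 2 arrays as 1 pool, which was not tested. The first C-DE array exceeded the second by 2.67 for Bpifa6 and 2.69 for BC048679, the third and second largest differences among 21709 probes in that pool. In C-DE, 0.723% of all probes differed by 1.5-fold or more between duplicates, and 2 of the 7 member probes did. In C-C, where 0.82% of all probes and 3 member probes did, the second array was higher by 1.24 for Bpifa6 and 0.92 for BC048679. The third such member in C-C was Scgb1c1. In EE-DE, where 1.22% of all probes and 1 member probe differed this far, Bpifa6 was 0.74 higher on the second array.

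In EE-DE/EE-C, Bpifa6 was 7.73-fold and BC048679 7.64-fold lower in the exposed enriched pool. The log2 differences were -2.95 (-3.60 to -2.30 over the 4 pairings of an EE-DE with an EE-C array) and -2.93 (-3.19 to -2.68). Of all probes, 0.944% lay 1.5-fold or more apart in this comparison and 0.0783% did so the same way in all 4 pairings, against 3 and 2 of the 7 member probes. Since the genes were chosen on these values, nothing is read from the larger share among members. With normexp background correction (offset 50) the log2 differences were -2.12 and -1.91.

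In C-DE/C-C, the mean difference of Bpifa6 was -1.15 with a range over the pairings from -3.11 to 0.80, and that of BC048679 was -1.05 with a range from -2.86 to 0.76. The sign of both depended on which C-DE array was taken. Without the first C-DE array the differences were -2.49 and -2.40, and without the second they were 0.19 and 0.29. Without the second C-C array they were -0.53 and -0.59, and without the first -1.77 and -1.51. In this comparison 0.576% of all probes passed 1.5-fold and 0.106% passed it in all 4 pairings, against 3 and 0 member probes, the third being Scgb1c1. BC048679 fell short of 1.5-fold with normexp (-0.58) and with linear means (-0.57), which left 2, and Bpifa6 was at -0.73 with linear means.

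EE-DE/C-DE shares the C-DE arrays with C-DE/C-C and had the same uncertainty, with -1.18 (-2.89 to 0.53) for Bpifa6 and -1.11 (-2.51 to 0.29) for BC048679. Without the first C-DE array the differences were 0.16 and 0.24, and without the second they were -2.52 and -2.46. With normexp they were -0.75 and -0.70, and with linear means -1.68 and -1.66. Of all probes, 0.636% passed 1.5-fold in EE-DE/C-DE and 0.175% passed it in all 4 pairings, against 3 and 1 member probes, the 1 being Scgb1c1. EE-DE/C-C gave -2.33 (-3.32 to -1.34) for Bpifa6 and -2.16 (-2.68 to -1.64) for BC048679, and both EE-DE arrays lay below both C-C arrays. There 0.815% of all probes passed 1.5-fold and 0.111% in all 4 pairings, and the 2 member probes that passed both were these. Without the first C-C array the differences were -2.95 and -2.62, without the second -1.71 and -1.70, and with normexp -1.55 and -1.28.

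In EE-C/C-C, the 2 clean-air pools, Bpifa6 was 0.62 higher (-0.28 to 1.52) and BC048679 0.77 higher (0.12 to 1.43) in EE-C. Without the first C-C array the differences were 0.00 and 0.31, without the second C-C array 1.24 and 1.23, and without the second EE-C array 0.34 and 0.58. In this comparison 0.825% of all probes and 3 member probes passed 1.5-fold, the third being Obp1a, and 0.0461% of all probes but 0 member probes passed it in all 4 pairings. Bpifa6 fell short of 1.5-fold with normexp (0.57) and with linear means (0.52), which left 2.

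**Figure D2:**
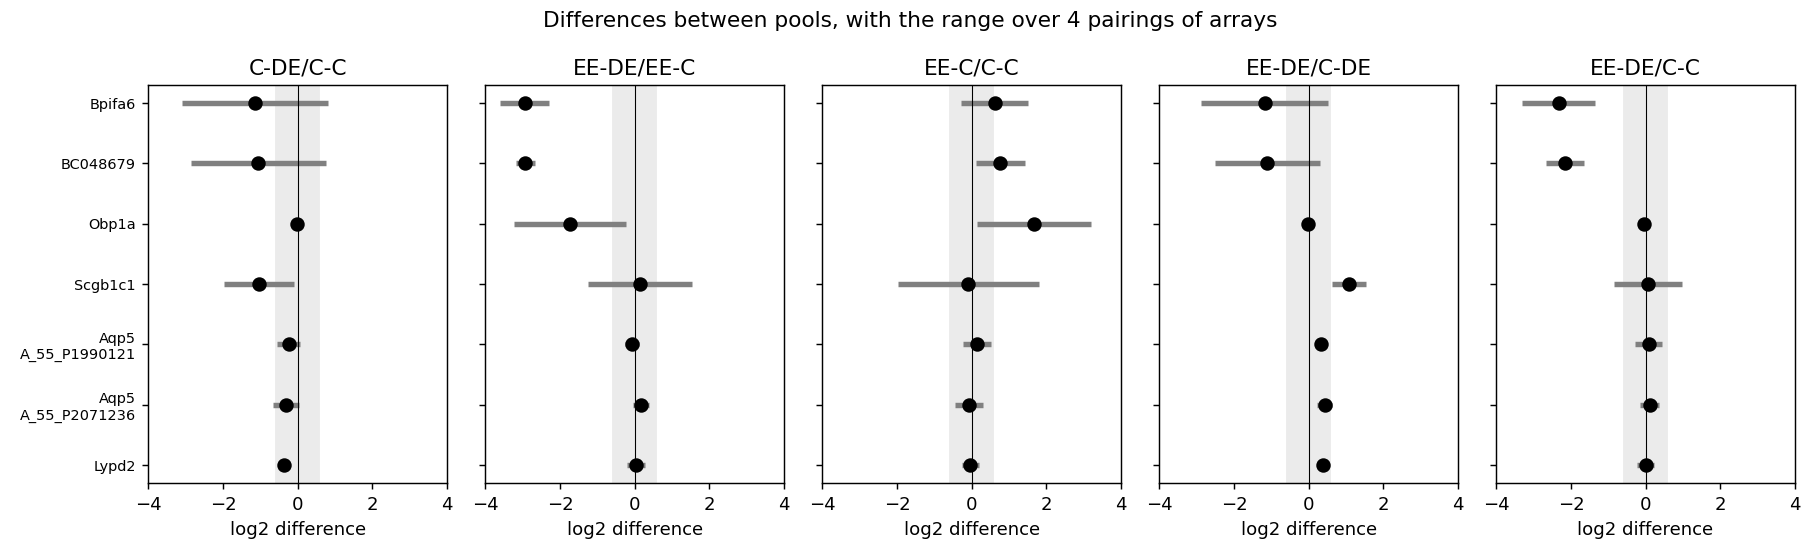
Log2 difference between pools for each probe in the 5 comparisons. Points compare the pools' means over 2 arrays, grey lines run from the lowest to the highest of the 4 pairings and the grey band is 1.5-fold; in EE-DE/EE-C the lines of Bpifa6 and BC048679 stay below -2.30, while in C-DE/C-C they cross 0.

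Among 3672 probes with a range of at least 1 over the arrays, those whose levels were most like the mean of Bpifa6 and BC048679 were Psapl1 (r = 0.94 over 8 arrays), 9430007A20Rik (0.90), Olfr48 (0.86), Chek1 (0.84) and BC100534 (0.84). Against Bpifa6 alone the leading genes besides BC048679 were the same apart from Chek1, and against BC048679 alone Psg21 (0.85), a pregnancy-specific glycoprotein, took a place. Psapl1, which encodes a prosaposin-like protein, was at -2.71 and -2.01 in C-C, -2.58 and -3.53 in C-DE, -2.59 and -2.12 in EE-C, and -3.24 and -3.20 in EE-DE. It was lowest on the same 3 arrays and moved less than the members, with a slope of 0.36 on their mean. The other 4 genes had slopes of 0.24 to 0.45, and 9430007A20Rik, Olfr48 and Chek1 were at the lowest measurable level on the first EE-DE array. All arrays share the slide and the 2 arrays of a group are described as 1 pool, so these coefficients are descriptions over 8 related points.

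**Figure D3:**
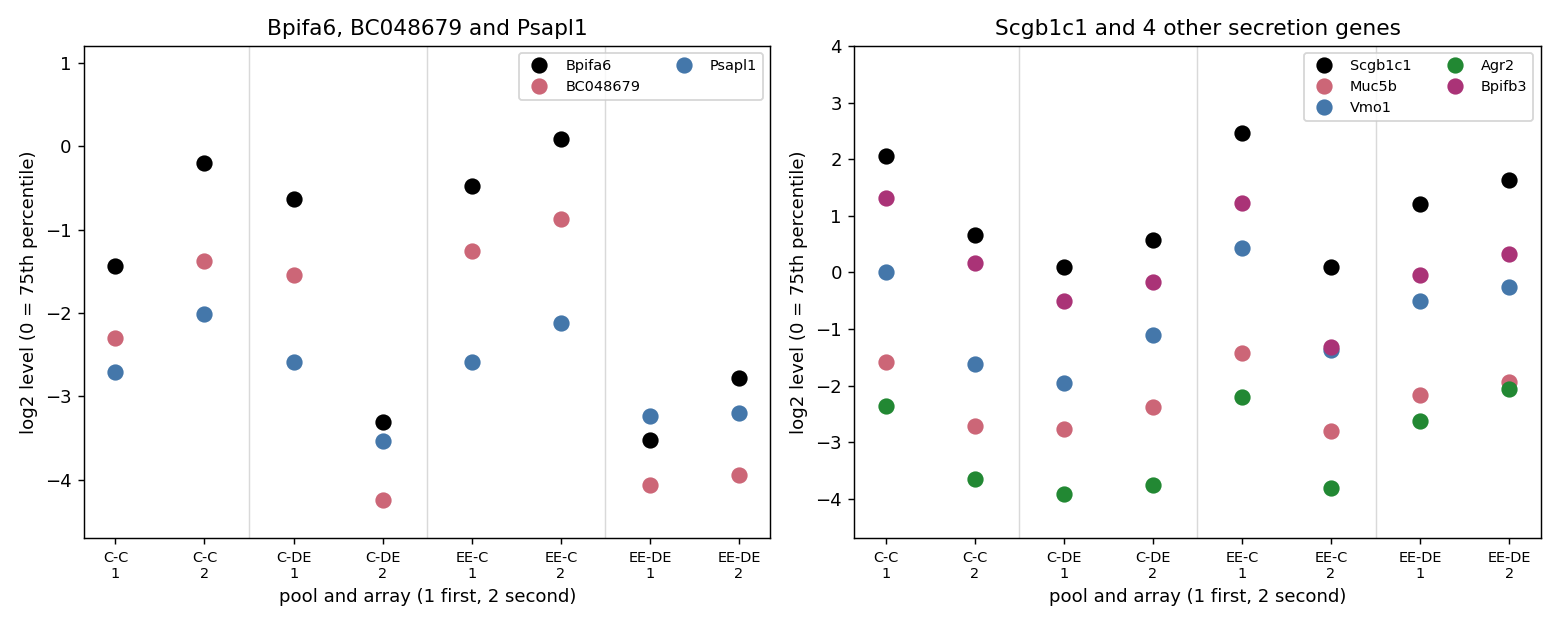
Log2 level (0 is the 75th percentile) on each of the 8 arrays. Left, Bpifa6, BC048679 and Psapl1, all lowest on the second C-DE array and the 2 EE-DE arrays; right, Scgb1c1 with Muc5b, Vmo1, Agr2 and Bpifb3, where the first C-C and first EE-C arrays are high and the second EE-C array is low.

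Obp1a encodes an odorant-binding protein of the lipocalin family, small barrel-shaped proteins that carry hydrophobic odorants in nasal mucus. Its log2 level was -2.12 and -2.20 on the C-C arrays, -2.27 and -2.11 on the C-DE arrays, -1.97 and 1.00 on the EE-C arrays, and -2.19 and -2.23 on the EE-DE arrays. In processed signal the second EE-C array reached 1394 and the 7 others lay between 133 and 168. The other 7 arrays lay within 0.30 of one another, and the second EE-C array was 7.85-fold above the next highest, the other array of its group.

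All differences of Obp1a past 1.5-fold came from that array. EE-C/C-C gave 1.68 (0.16 to 3.21) and EE-DE/EE-C gave -1.73 (-3.24 to -0.23). Without the second EE-C array they were 0.20 and -0.25, without the first EE-C array 3.17 and -3.22, and the other 3 comparisons lay between -0.05 and -0.02. With means of linear signals, which give the brighter array more weight, EE-C/C-C was 2.34 and EE-DE/EE-C was -2.39. The difference of 2.97 between the EE-C duplicates ranked 7 among 21709 probes, of which 2.12% differed by 1.5-fold or more in that pool, as did 2 member probes (Obp1a and Scgb1c1). The spot on the second EE-C array covered 43 pixels with an SD of 11.1% of the mean intensity, within the range of the other arrays' spots, and the median of its 51 neighbouring spots differed by 0.01 from the other arrays.

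Obp1a was not alone on this array. Of 26348 probes with a GenBank or RefSeq name and a spot well above background on at least 1 array without an outlier flag, 36 were at least 4-fold above all other arrays on the second EE-C array, against 1 to 53 on the other arrays. Among the 36 were 6 of the 11 Mup probes compared, those of the major urinary protein genes Mup4, Mup9, Mup19 and Mup20, which are lipocalins that bind pheromones, and 3 of the 9 Lcn probes, those of the lipocalins Lcn11, Lcn13 and Lcn14. They also held Gm14743 and Gm14744, whose probes lie on either side of that of Obp1a on the X chromosome (start 75485858 and 75115295). The other Mup9 probe was not well above background on any array, and Mup5 was well above it on the second EE-C array alone, at least 1.12-fold higher there than on any other. Lcn3 and Lcn4, also on the secretion list, were not well above background on any array. These genes were singled out after their values were seen, apart from Mup4 and the Lcn genes of the secretion list and Mup19 by likeness. Some Mup genes are near-identical copies, so a Mup probe may report more than 1 of them, which was not checked.

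Lcn11, Lcn13 and Lcn14 were well above background on that array alone, at 0.07, 0.03 and -1.39 (log2), and at least 27.4-fold, 26.7-fold and 10.0-fold higher than on any other array, taking the lowest measurable signal of each array as the bound. The brighter Mup4 probe was at 2.23 there and between -6.31 and -4.45 elsewhere, 103-fold above the next array, and the dimmer one was at least 9.16-fold above any other array. Gm14744 was at 2.79 against at most -4.09, a 117-fold difference. Mup19 was at 0.17, 26.5-fold above the next array. The size of the step was thus larger for these genes, which were near or below the detection limit on the other arrays, than for Obp1a, which had a signal of 133 or more on all arrays.

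The Lcn probes lie close together on chromosome 2 (starts 25557738 for Lcn13, 25594786 for Lcn14 and 25634809 for Lcn11), and the Mup4 probes on chromosome 4, so the genes that were high on this array come from at least 3 chromosomes. By likeness to Obp1a over the 8 arrays, the leading genes were Ankrd26 (r = 0.99), Mup19 (0.99), Ccnt1 (0.99), Herc3 (0.99) and 1700015F17Rik (0.98). Ccnt1, a cyclin of transcription elongation used by every cell, was at 5.03 on the second EE-C array and between -0.30 and the 75th percentile on the others. Genes with no known place in gland secretion therefore shared this profile, and with 1 high array r says little more than that the same array was high.

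**Figure D4:**
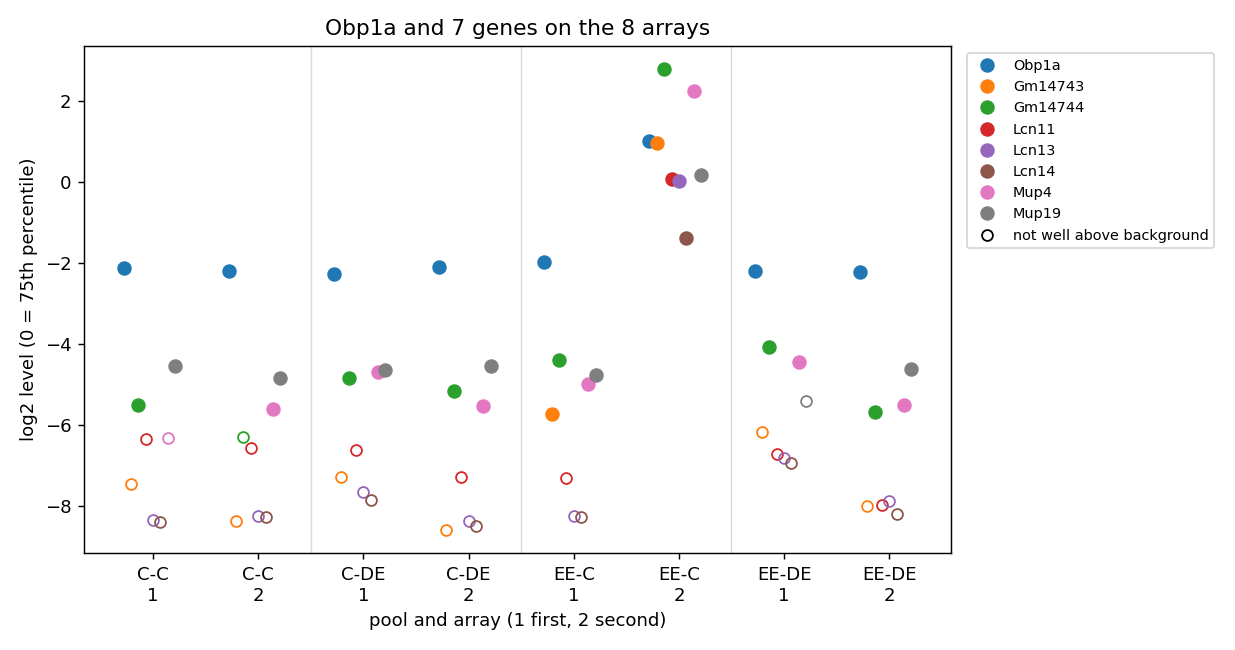
Log2 level (0 is the 75th percentile) of Obp1a and 7 genes that were high on the second EE-C array, on each of the 8 arrays. Filled circles are spots well above background and open circles spots that were not; on the second EE-C array all 8 probes were between -1.39 and 2.79.

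Scgb1c1 encodes a secretoglobin, a family of small proteins secreted into airway fluid. Its probe had a processed signal between 687 and 3617. Its log2 level was 2.06 and 0.67 on the C-C arrays, 0.09 and 0.58 on the C-DE arrays, 2.46 and 0.09 on the EE-C arrays, and 1.21 and 1.63 on the EE-DE arrays. The highest and the lowest of the 8 levels both belonged to the EE-C pool, and the first array was the high one, opposite to Obp1a.

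The duplicates of Scgb1c1 lay 2.37 apart in EE-C and 1.39 apart in C-C, ranking 14 and 16 among all probes of those pools. They lay 0.48 apart in C-DE and 0.42 in EE-DE. EE-DE/C-DE was 1.09 (0.63 to 1.54), and it was the only comparison in which Scgb1c1 passed 1.5-fold in all 4 pairings. C-DE/C-C was -1.03 (-1.96 to -0.09), and it was -0.33 without the first C-C array and -1.72 without the second.

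The 3 remaining comparisons of Scgb1c1 had means near 0 with wide ranges. EE-DE/EE-C was 0.15 (-1.25 to 1.54), EE-C/C-C was -0.09 (-1.97 to 1.80) and EE-DE/C-C was 0.06 (-0.85 to 0.97). EE-DE/EE-C was -1.04 without the second EE-C array and 1.33 without the first, and EE-C/C-C was 1.10 and -1.27. Without the first C-C array EE-DE/C-C was 0.76, and without the second it was -0.63. For these the arrays of 1 pool differed by more than the pools did.

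**Figure D5:**
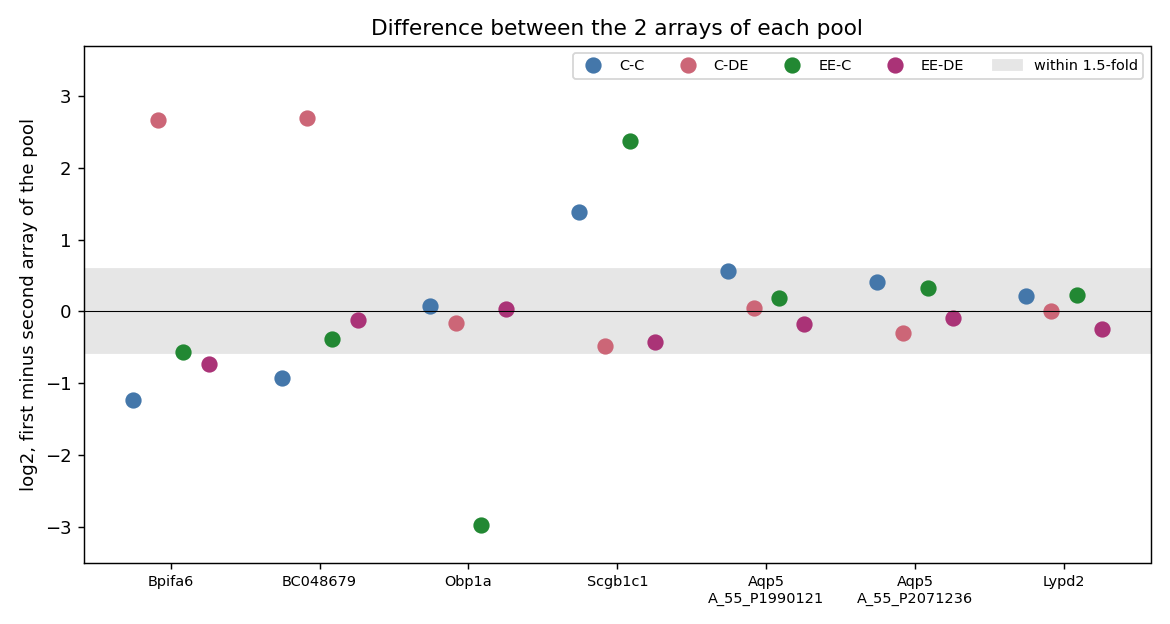
Log2 difference between the first and the second array of each pool, for the 7 probes. The methods describe both arrays as 1 RNA pool, which was not tested, points are coloured by pool and the grey band is 1.5-fold; Bpifa6 and BC048679 in C-DE (2.67 and 2.69), Obp1a in EE-C (-2.97) and Scgb1c1 in EE-C (2.37) lie farthest from 0.

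The genes most like Scgb1c1 were Muc5b (r = 0.98 over 8 arrays), Sult1e1 (0.96), Vmo1 (0.96), Krt23 (0.94) and Gm949 (0.93). Muc5b, a gel-forming mucin of airway mucus, was at -1.59 and -2.71 in C-C, -2.76 and -2.39 in C-DE, -1.43 and -2.81 in EE-C, and -2.17 and -1.94 in EE-DE. Vmo1, a homologue of a protein of the egg's vitelline membrane, was at 0.01 and -1.63 in C-C, -1.95 and -1.11 in C-DE, 0.43 and -1.38 in EE-C, and -0.51 and -0.27 in EE-DE. Both were highest on the first EE-C and first C-C arrays, as Scgb1c1 was, and dropped within each of these pools by more than 1 (log2).

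The 2 Aqp5 probes lie close together on chromosome 15 and gave different levels but a similar course (r = 0.79 over 8 arrays). Probe A_55_P1990121 was at -1.30 and -1.86 in C-C, -1.79 and -1.85 in C-DE, -1.33 and -1.52 in EE-C, and -1.58 and -1.41 in EE-DE. Probe A_55_P2071236 was at -3.21 and -3.62 in C-C, -3.88 and -3.59 in C-DE, -3.32 and -3.65 in EE-C, and -3.35 and -3.27 in EE-DE. The first C-C array was the highest for both probes.

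Aqp5 did not pass 1.5-fold in any of the 5 comparisons with either probe. In EE-DE/C-DE the differences were 0.33 (0.21 to 0.44) and 0.43 (0.24 to 0.62), and with normexp 0.24 and 0.21. The arrays of the 2 pools did not overlap, but the share of all probes without overlap was not counted, so nothing is read from it. In C-DE/C-C the differences were -0.24 (-0.55 to 0.07) and -0.32 (-0.67 to 0.03), and the arrays overlapped. With normexp these were -0.22 and -0.14. The C-C duplicates of probe A_55_P1990121 lay 1.47-fold apart, further than any mean difference of that probe between pools.

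Lypd2 varied least. Its log2 level was -1.50 and -1.72 in C-C, -1.98 and -1.98 in C-DE, -1.52 and -1.76 in EE-C, and -1.72 and -1.49 in EE-DE. Both C-DE arrays lay below all other arrays, but the share of all probes in such an order was not counted, so nothing is read from it. C-DE/C-C was -0.37 (-0.48 to -0.26) and EE-DE/C-DE was 0.38 (0.26 to 0.50), both under 1.5-fold, and the other 3 comparisons lay between -0.03 and 0.03.

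Aqp5 and Lypd2 moved with Scgb1c1 over the arrays (r = 0.78 and 0.89 for the Aqp5 probes and 0.83 for Lypd2) and not with Bpifa6 (r between -0.40 and 0.06). The genes most like Lypd2 were Krt8 (r = 0.97), Aqp3 (0.95), Ugt2a1 (0.95), Tspan1 (0.94) and Lce1m (0.94). The Krt8 value is that of probe A_66_P128079. The other Krt8 probe, A_55_P2128501, was well above background on 5 arrays and at -0.07 on the second EE-C array, 17.0-fold above every other array, so the 2 probes disagree there. Krt8, a keratin of simple epithelia, and Ugt2a1, an enzyme that conjugates odorants, stand on the list of supporting cell markers used below. The genes most like Aqp5 were Ces1a (0.98), Tspan1 (0.96), Bpifb4 (0.95), Vmo1 (0.94) and Agr2 (0.93). These genes changed by 1.89 to 4.47 log2 units for each unit of Lypd2 or Aqp5. Only probes with a range of at least 1 were compared, more than either member had. Their larger size therefore follows from that choice, and nothing is read from it.

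Of 51 further gland and airway secretion genes listed, 43 were on the array by name, 38 were well above background on at least 1 array and 21 passed, with 23 probes. Scgb1a1 and Scgb3a1 passed with 4 and 1 of the 10 spots of their probes, the others having failed the filter. In C-DE/C-C, 6 were lower by 1.5-fold or more and 0 higher, with a median of -0.08 against -0.01 over all probes. Of all probes, 0.576% passed 1.5-fold in C-DE/C-C, 94 lower and 31 higher. In EE-DE/C-DE, 5 of the list were higher and 0 lower, with a median of 0.08 against 0.00 over all probes. Of all probes, 0.636% passed in EE-DE/C-DE, 121 higher and 17 lower. On the list, EE-DE/EE-C had 3 higher and 0 lower, EE-C/C-C 1 higher and 2 lower, and EE-DE/C-C 1 higher and 1 lower. Over all probes these 3 comparisons had 132, 62 and 103 higher and 73, 117 and 74 lower. The list's counts depended on single arrays in all comparisons but EE-DE/C-DE. There 5 to 7 were higher and 0 lower whichever array was left out, and 4 passed with normexp. Leaving out the first C-C array changed the 6 lower to 2 lower and 1 higher, the count for EE-C/C-C from 3 to 5 and that for EE-DE/C-C from 2 to 5. The direction turned as well where EE-C took part. EE-C/C-C had 0 higher and 5 lower without the first EE-C array, and 5 higher and 1 lower without the second. It had 4 higher and 1 lower when the first C-C array was omitted, against 0 higher and 6 lower when the second was. EE-DE/EE-C had 7 higher and 0 lower without the first EE-C array but 1 higher and 5 lower without the second, so neither of these comparisons had a stable direction. EE-DE/C-C had 5 higher and 0 lower without the first C-C array, 0 higher and 3 lower without the second, and 1 lower without the second EE-DE array. With normexp the number was 3 for C-DE/C-C, and it fell to 0 for EE-DE/EE-C, to 1 for EE-C/C-C and to 1 for EE-DE/C-C. Linear means gave 1 for each of these last 3 comparisons.

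Among the listed genes, Agr2, an endoplasmic reticulum protein needed for mucin folding, followed Scgb1c1: it was at -2.36 and -3.66 in C-C, -3.92 and -3.76 in C-DE, -2.19 and -3.82 in EE-C, and -2.63 and -2.07 in EE-DE. Bpifb4, a BPI fold protein of family B, was at 0.70 and -1.94 in C-C, -1.93 and -0.95 in C-DE, 0.63 and -0.82 in EE-C, and -0.15 and -0.12 in EE-DE. Aqp3, a water and glycerol channel, was at -1.59 and -2.52 in C-C, -3.38 and -3.16 in C-DE, -1.74 and -3.01 in EE-C, and -2.18 and -1.29 in EE-DE. Muc16, a membrane mucin left out of the counts by an outlier flag, ran from -5.06 on the first C-DE array to -2.45 on the second EE-DE array. These 4 genes were 1.31 to 1.84 higher in EE-DE than in C-DE.

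The BPI fold genes did not form a single pattern. Bpifb9b was at -4.92 and -3.60 in C-C, -0.32 and -3.20 in C-DE, -0.24 and -1.67 in EE-C, and -4.92 and -4.37 in EE-DE, highest on the first arrays of C-DE and EE-C, and its spot on the first EE-DE array was not well above background. Bpifa5 was well above background on 8 arrays, lay between -3.25 and -2.50 and passed 1.5-fold in no comparison. Bpifa1, a BPI fold protein of the airway, was well above background on 5 arrays, at -0.50 on the second C-C array, -2.42 on the first C-DE array, -0.90 and -2.56 on the EE-C arrays and -0.81 on the second EE-DE array. On the other 3 arrays Bpifa1 was not well above background, among them the first C-C array, on which Bpifa6 was at -1.44. Bpifa1, and Bpifb3 in the plot with Scgb1c1, were picked after their values were seen.

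Markers of cells of the nose moved with some of the members. Of the 14 supporting cell probes that passed, of 10 of the 12 listed genes, 10 were lower in C-DE than in C-C (median -1.01) and 10 were higher in EE-DE than in C-DE (median 1.47). Of all probes, 0.576% passed in C-DE/C-C, 94 lower and 31 higher, and 0.636% in EE-DE/C-DE, 121 higher and 17 lower. Of the 14 probes, EE-DE/EE-C had 7 higher and 0 lower, EE-C/C-C 0 higher and 3 lower, and EE-DE/C-C 2 higher and 0 lower. Leaving out each array in turn was added for the marker lists after seeing the data. The first 2 comparisons had 9 or 10 probes past 1.5-fold in that direction whichever array was left out, but the other 3 rested on single arrays. The 7 became 0 without the second EE-C array, 10 without the first and 3 without the second EE-DE array. The 3 became 0 without the second EE-C or the first C-C array, and 10 without the other array of either group. The 2 became 10 without the first C-C or the first EE-DE array, and 0 without the second of either. Over the brightest probe of each of the 11 listed genes detected on at least 1 array, Cyp1a2 among them, which did not pass, the median level was 0.01 and -0.78 on the C-C arrays, -1.68 and -0.93 on the C-DE arrays, 0.03 and -1.29 on the EE-C arrays, and -0.44 and 0.44 on the EE-DE arrays, and the summed level of these 11 probes lay between 23.8 and 45.3 times the 75th percentile. Most of this sum came from Ermn, a gene also expressed by oligodendrocytes, whose brighter probe lay between 4.12 and 5.02 on the log2 scale. Without Ermn, an alternative added after seeing the data, the sum was 4.74 and 5.88 on the C-DE arrays and lay between 5.34 and 18.5 on the other 6. Within C-C and within EE-C the first array was the higher one, as for Scgb1c1, and the first EE-C array was above the second where Obp1a was the reverse.

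Olfactory sensory neuron markers, of which 11 of 12 genes passed, had a summed level between 162 and 198, with 3 of 11 probes lower in C-DE/C-C, 3 higher in EE-DE/EE-C and 3 higher in EE-DE/C-DE. The 3 in EE-DE/EE-C became 0 without the second EE-C array and 0 without the second EE-DE array. The counts over all probes printed with the secretion list are the background for this and the following lists too. Nasal respiratory epithelium markers had a summed level between 0.90 and 1.59, with Tff2 and Cyp4b1 not well above background on any array, and 0 of the 4 probes tested passed 1.5-fold. Bpifa1 and Reg3g, well above background on 5 and 4 arrays, failed the filter and were not among the 4. With dim values set to the lowest measurable signal, they ranged over 5.79 and 3.20. Bone markers summed to 5.55 to 11.5, with 3 of 8 probes lower in C-DE/C-C, 2 lower in EE-C/C-C and 1 higher in EE-DE/C-DE. The 3 lower bone probes became 0 without the first C-DE or the first C-C array and 5 without the second of either, the 2 became 0 without the second EE-C or the first C-C array and otherwise 5, and the 1 ranged from 0 to 4. Neutrophil and marrow markers summed to 2.79 to 9.76, with 5 of 8 lower in C-DE/C-C, 1 higher in EE-C/C-C and 5 higher in EE-DE/C-DE. Without the first C-C array the 5 lower were 3, and without the first EE-DE array the 5 higher were 0. In EE-C/C-C 7 were higher without the second EE-C array and 2 lower without the first, and in EE-DE/EE-C, with 0 past the threshold, 7 were lower without the second EE-C array and 6 without the first EE-DE array. Red blood cell markers summed to 52.7 to 76.4 and choroid plexus markers to 0.56 to 0.82, with 0 probes past 1.5-fold in either list. The part of such cells in the differences of the members was not tested, and in RNA of a whole tissue fewer cells of a type and less RNA per cell cannot be told apart.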

How the data were processed

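The authors deposited scanner intensity per spot, made with Agilent Feature Extraction 10.7.3.1 and corrected for background and spatial trend, per the file headers; pixel counts and spot flags came from the same files. The authors' series table holds log2 values that matched the log2 signal minus the 75th percentile, centred on each probe's median; both sources lay within 0.02 for 99.4% of 21709 probes and within 0.0116 for the members. Levels are log2(processed signal) minus the array's 75th percentile over noncontrol spots. The filter worked on spots: a spot was kept with a GenBank or RefSeq name, a signal well above background on all 8 arrays and no outlier flag (23956 of 35736 spots). The kept spots of a probe were averaged, so a probe with several spots passed where at least 1 was kept, which left 21709 probes. A probe was called at 1.5-fold (0.585 on the log2 scale). Genes like a member were the 5 with the highest Pearson's r over the arrays, among probes well above background on at least 1 array with a range of at least 1, dim values set to the lowest signal well above background on that array. Listed secretion genes were named for the 10 probes with the largest difference past 1.5-fold. Lists were made for secretion genes, olfactory bulb neurons, olfactory sensory neurons, supporting cells, respiratory epithelium, bone, neutrophils and marrow, red blood cells and choroid plexus. The members and the lists were chosen with earlier results of these data known. RefSeq names (GRCm38.p6) matched all 7 member probes. Tools were Python 3.11.15, numpy 2.4.6, pandas 2.3.3, matplotlib 3.10.9, R 4.3.3 and limma 3.58.1. The alternatives were normexp (offset 50), quantile normalization, the median as scale, the series table, linear means, a 2-fold threshold, all 4 pairings, 2 filters on dim spots, outlier spots kept, and leaving out each array.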

Additional observations from a re-analysis of the deposited data

How the results depend on the processing

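No paired analysis was possible because each group is 1 RNA pool on 2 arrays and no test was made. The number of arrays and the signal over background limit every value. Over the 7 member probes and 5 comparisons, the 5 settings that alter the members' values gave 175 values. Of these, 167 moved by less than the SD between duplicates, pooled over the 2 groups compared, and 8 by more, all 8 under normexp. This SD is widest for members whose duplicates differ most, so it is a loose bound for them. That SD was 1.49 for the Obp1a comparisons with EE-C, so their shift of over 1.5 times with linear means (to 2.34 and -2.39) is not among the 8. Thresholds and filters leave the members' differences as they are. Leaving out an array turned 4 called values: without the second C-DE array (C-DE replicate 2), C-DE/C-C was 0.19 for Bpifa6 and 0.29 for BC048679, against -2.49 and -2.40 without the first; EE-DE/C-DE was 0.16 and 0.24 without the first, against -2.52 and -2.46 without the second. For the number of member probes past the threshold, leaving out an array gave 1 to 3 for both C-DE/C-C and EE-DE/C-DE, 1 to 4 for EE-C/C-C, 3 to 4 for EE-DE/EE-C and 2 to 3 for EE-DE/C-C. In all 4 pairings it was 0 in C-DE/C-C, 0 in EE-C/C-C and 1 in EE-DE/C-DE, and at 2-fold 1 in EE-C/C-C. Of all probes, 125 passed for C-DE/C-C, then 205 for EE-DE/EE-C, 179 for EE-C/C-C, 138 in EE-DE/C-DE and 177 in EE-DE/C-C, the order kept below. With an array left out the counts were 112 to 218, 212 to 396, 184 to 398, 146 to 262 and 190 to 296; at 2-fold 27, 33, 24, 51 and 28; in all 4 pairings 23, 17, 10, 38 and 24. With positive and significant spots they were 572, 827, 645, 674 and 772. With all noncontrol spots, floored, they were 1207, 18614, 1428, 18705 and 18525, the floor of the first EE-DE array being -4.71 (log2) against -6.29 to -5.97 elsewhere. Normexp gave 38, 136, 53 and 51 in all but EE-C/C-C, where it gave 149. Of 35 places among the genes most like a member, 17 were shared with Spearman's rho and 19 with probes well above background on all 8 arrays.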

Other observations

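Dmbt1 and Reg3g, listed secretion genes, were picked after their values were seen. Dmbt1, a mucosal scavenger receptor, was well above background on the first EE-DE array alone, at -2.72 (log2), at least 9.53-fold above any other array. Reg3g, a secreted antibacterial lectin, was well above background on 4 arrays and highest on the first EE-C array at -3.09, followed by -3.64 on the second C-C array and -3.92 on the second EE-DE array, arrays on which Bpifa1 was also high (-0.90, -0.50 and -0.81). Over all 26348 probes well above background somewhere, those at least 4-fold above every other array numbered 10 and 7 on the C-C arrays, 13 and 2 on the C-DE arrays, 30 and 36 on the EE-C arrays, and 53 and 1 on the EE-DE arrays.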
